A study of Homo sapiens with 6 samples.

Results

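The comparison described here sets ZNF395 knockdown against a non-targeting control in 786-O, a human clear cell renal cell carcinoma line. It rests on 3 of the 6 RNA libraries of the series, chosen by the cell line and construct in their labels: 786-O with a non-targeting short hairpin RNA, 786-O with ZNF395 hairpin 1 and 786-O with ZNF395 hairpin 3. The other 3 libraries hold A-498, a second human clear cell renal cell carcinoma line, with the same 3 constructs. In every library, the controls included, the cells had been infected with retroviral particles packaged by HEK293T cells, which derive from human embryonic kidney, and had been selected with puromycin. The constructs came from the commercial MISSION collection, total RNA was made into TruSeq Stranded Total RNA libraries, and each value is a read count per gene, printed as CPM, the count scaled to library size with TMM factors. Each construct had 1 library per line, so no spread between repeat cultures of 786-O was measured, and both knockdown ratios share the lone control. A control value that was low or high by chance moves both ratios the same way.

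ZNF395 is a zinc finger protein that binds DNA and acts in transcription. It is induced by hypoxia and is among the genes that are highly expressed in clear cell renal cell carcinoma, a tumour in which loss of the VHL tumour suppressor keeps hypoxia-inducible factors active. 786-O lacks a working VHL and carries HIF-2 alpha, the product of EPAS1, as its main hypoxia-inducible factor. Earlier work has linked it to inflammatory and interferon-response genes. A short hairpin RNA lowers its target by guiding cleavage of the messenger RNA.

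Library totals of 786-O were 79709917 counts for the control, 80483251 for hairpin 1 and 78841052 for hairpin 3, so that 1 CPM stood for 78.2, 78.3 and 75.4 counts. Genes of mitochondrial DNA took 5.13 to 5.45% of the counts. Of 32357 genes in the table, 12990 had a mean of at least 1 CPM over these 3 libraries, and these are the genes compared. Of 12 renal and clear cell carcinoma markers 9 reached 1 CPM, among them PAX8 (184 CPM in the control, 186 with hairpin 1, 156 with hairpin 3), vimentin and EPAS1 (160, 122 and 258 CPM), while the carcinoma marker CA9 and the proximal tubule receptor LRP2 were at 0 to 0.0256 CPM. Of the endothelial and immune markers none reached 1 CPM, with VWF at 0 and summed levels of 0.243 to 0.490 and 0.278 to 0.397 CPM. The fibroblast list summed to 6.82 to 9.52 CPM, and the HEK293-associated list to 282, 254 and 218 CPM, nearly all of it NEFL. Of the 7 measured genes of the latter list 2 reached 1 CPM, NEFL and ZIC2 (17.55, 11.2 and 18.7 CPM). NEFM, LIN28B, SOX2 and CNTNAP2 were under 1 CPM in all 3 libraries, and INA was at 0. Whether carry-over of packaging cells contributes to NEFL was not tested.

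The control library of 786-O held low counts of genes that are high in the other line. In all, 20 genes stood at 20 CPM or more in both A-498 knockdown libraries and at 0.05 CPM or less in both 786-O knockdown libraries. In the 786-O control they stood at a median of 0.221% of their level in the A-498 control (range 0.0444 to 0.517%). Summed, they came to 3.30 CPM in the 786-O control, against 0.256 CPM with hairpin 1 and 0.225 CPM with hairpin 3, values that the choice of genes keeps low in the knockdown libraries, and 1542 CPM in the A-498 control. AKR1C2, for example, was at 0.793, 0.0256 and 0.0265 CPM in the 3 libraries of 786-O and at 391 CPM in the A-498 control. In the A-498 control the same measure over 11 genes gave a median of 0.0888% of the 786-O level. Choosing genes near 0 in the knockdown libraries favours a higher control, and the source of these counts was not tested. Results that this share touches are given with it and with the share taken off the control counts.

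**Figure D1:**
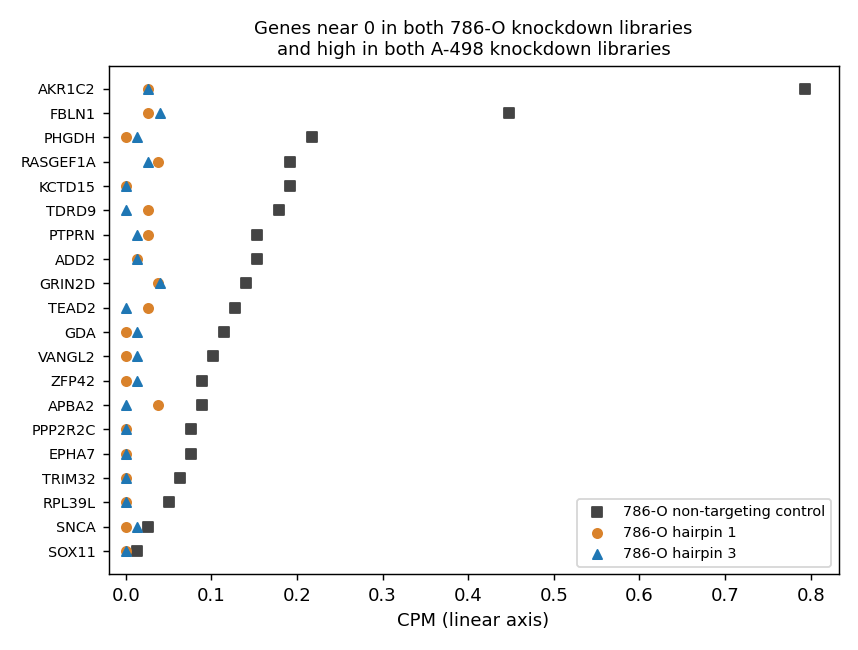
CPM (linear axis) of the 20 genes that were near 0 in both 786-O knockdown libraries and high in both A-498 knockdown libraries, in the 3 libraries of 786-O. The control (squares) lies between 0.0128 CPM for SOX11 and 0.793 CPM for AKR1C2, to the right of both knockdown libraries for every gene.

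The targeted gene was low with both hairpins. ZNF395 had 7615 counts (97.4 CPM) in the control, 1932 (24.7 CPM) with hairpin 1 and 1011 (13.4 CPM) with hairpin 3. Thus 25.3% of the control level was left with hairpin 1 (95% exact counting interval 24.1 to 26.6%) and 13.8% with hairpin 3 (12.9 to 14.7%). Both knockdown libraries lie far below the control, and hairpin 3 below hairpin 1. Counting intervals here and below cover counting error only, and a bulk library cannot separate a lower level per cell from fewer cells that express the gene. On the same strand ZNF395 overlaps FBXO16 in the annotation, so some of its counts are uncertain. In A-498 the same reagents left ZNF395 at 14.5 and 14.4 CPM against 67.3 CPM in that line's control.

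Genes that moved the same way with both hairpins were counted by the size of both ratios. With hairpin 1, 96 of the 12990 genes were at least 2-fold higher than the control (0.739%) and 75 at least 2-fold lower (0.577%). With hairpin 3, 259 were higher (1.99%) and 616 lower (4.74%). At least 2-fold higher with both were 41 genes (0.316%), and at least 2-fold lower with both 29 (0.223%), ZNF395 included. At 1.5-fold the counts were 145 higher (1.12%) and 178 lower (1.37%). The median log2 ratio of all genes was -0.01 with hairpin 1 and 0.01 with hairpin 3, which the scaling centres. Hairpin 3 gave the larger ratio in 28 of the 41 higher and 25 of the 29 lower genes. The members' median log2 ratios were 1.40 and 1.65 among the higher genes and -1.28 and -1.87 among the lower genes, hairpin 1 first, which the choice of members fixes in sign. All 70 genes had both 95% counting intervals beyond 1.5-fold, but they were chosen by these same counts, so nothing is read from that. Just inside the 2-fold limit lay INHBA (log2 ratios 1.07 and 1.01) and PTGFR (1.02 and 1.22), and just outside it TMED4 (1.00 after rounding, and 1.23) and SH3RF2 (1.09 and 0.99). Among the lower genes SLITRK4 (-1.002 and -1.16) and SLC29A3 (-1.002 and -1.87) lay just inside, and VAV3 (-0.99 and -3.52) and CFI (-0.97 and -1.82) just outside.

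**Figure D2:**
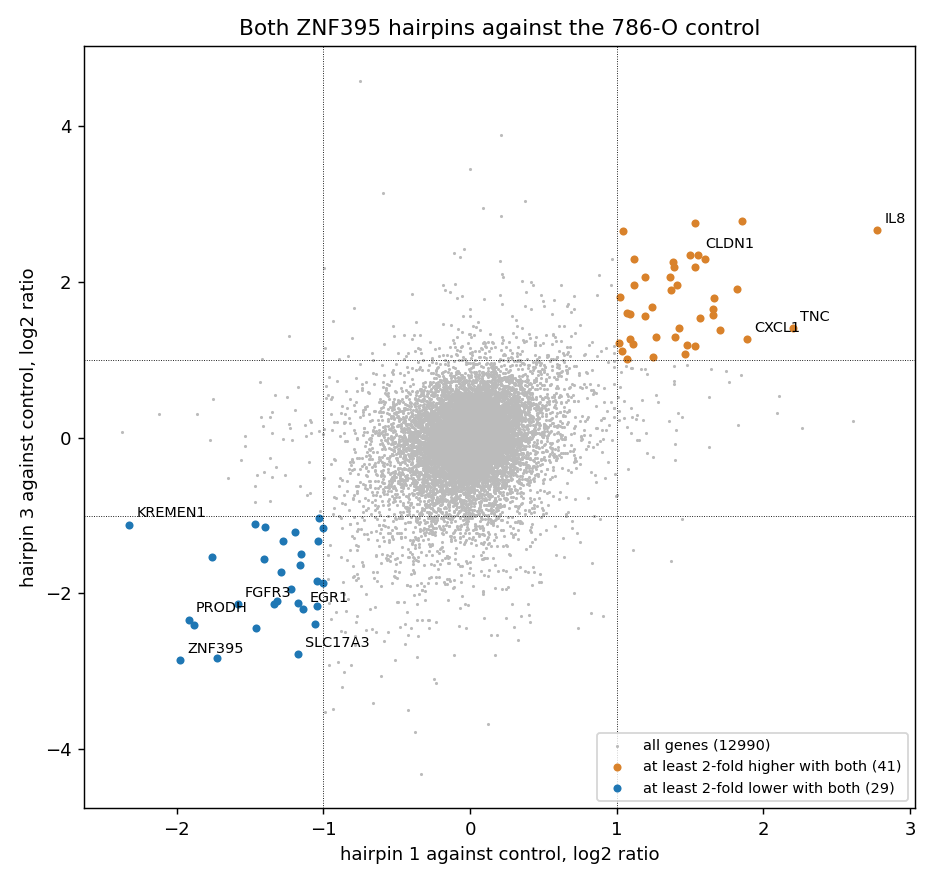
Log2 ratio to the 786-O control with hairpin 1 (horizontal) and hairpin 3 (vertical) for the 12990 genes compared, with dotted lines at 2-fold. The 41 genes past 2-fold with both upward (orange) and the 29 downward (blue) sit in the corners, and more genes lie below the lower line for hairpin 3 (616) than left of the line for hairpin 1 (75).

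Inflammatory genes of the NF-kB pathway led the higher genes. NF-kB is a family of transcription factors held in the cytoplasm by inhibitors, and its targets include cytokines, chemokines and the pathway's own subunits and inhibitors. Many of these targets carry a short NF-kB motif just before their start site. The promoters of 5 of the genes at least 2-fold higher with both hairpins are shown for that reason, 5′ to 3′ on the gene's own strand, from 250 bases before to 50 bases after the start, as RefSeq gives them on GRCh38.p14. Capitals mark the match to GGANTTTCC, read on either strand. The windows are chr4:73740319-73740618 (plus strand) for IL8, which RefSeq names CXCL8, chr7:22726950-22727249 (plus) for IL6, chr6:137867009-137867308 (plus) for TNFAIP3, chr4:73869143-73869442 (plus) for CXCL1 and chr4:74038640-74038939 (minus) for CXCL3.
IL8 (CXCL8): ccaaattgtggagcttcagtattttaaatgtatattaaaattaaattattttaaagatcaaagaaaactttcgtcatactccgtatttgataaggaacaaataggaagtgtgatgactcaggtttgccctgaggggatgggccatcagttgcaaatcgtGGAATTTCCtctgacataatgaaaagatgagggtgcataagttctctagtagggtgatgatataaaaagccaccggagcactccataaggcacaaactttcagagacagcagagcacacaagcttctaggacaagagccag
IL6: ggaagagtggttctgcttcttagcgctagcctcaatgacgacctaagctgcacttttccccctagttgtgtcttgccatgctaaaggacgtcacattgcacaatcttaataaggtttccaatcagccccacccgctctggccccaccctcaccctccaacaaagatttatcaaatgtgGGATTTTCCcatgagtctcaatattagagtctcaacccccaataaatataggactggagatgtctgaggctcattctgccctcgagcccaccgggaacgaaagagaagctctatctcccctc
TNFAIP3: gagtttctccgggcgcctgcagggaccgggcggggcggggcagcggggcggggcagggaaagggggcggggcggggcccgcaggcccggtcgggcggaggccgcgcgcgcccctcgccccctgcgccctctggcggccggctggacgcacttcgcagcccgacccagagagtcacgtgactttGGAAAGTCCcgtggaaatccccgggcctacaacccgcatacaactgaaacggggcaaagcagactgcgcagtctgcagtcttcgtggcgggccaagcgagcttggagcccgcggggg
CXCL1: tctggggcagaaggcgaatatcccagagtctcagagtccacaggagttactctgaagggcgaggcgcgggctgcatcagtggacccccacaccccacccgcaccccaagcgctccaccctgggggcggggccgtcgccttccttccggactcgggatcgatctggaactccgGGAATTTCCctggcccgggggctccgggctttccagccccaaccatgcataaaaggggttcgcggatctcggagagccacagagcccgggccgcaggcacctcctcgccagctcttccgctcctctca
CXCL3: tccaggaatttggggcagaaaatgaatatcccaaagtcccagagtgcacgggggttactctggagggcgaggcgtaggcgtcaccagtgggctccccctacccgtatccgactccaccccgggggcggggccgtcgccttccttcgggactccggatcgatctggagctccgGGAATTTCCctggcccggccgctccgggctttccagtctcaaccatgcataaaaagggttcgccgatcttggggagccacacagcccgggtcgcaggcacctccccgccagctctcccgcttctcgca

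The matches begin 91, 72, 67, 78 and 78 bases before the start site in that order. TNFAIP3 carries the motif on its other strand, and CXCL1 and CXCL3 share the motif's position and much of the sequence around it. Promoters were found for 31 of the 41 higher genes, 21 of the 29 lower genes and 9826 of the 12990 genes compared. GGANTTTCC, on both strands, was in 8 of 31 promoters of the higher genes (25.8%), in 1 of 21 of the lower genes (4.76%) and in 1.60% of all 9826. The other higher genes with a match were CD274, F3 and TNFRSF9. This form of the motif was chosen after its first results were seen. The form first searched, with a further G at the 5′ end, was in 5 of 31 (16.1%), 0 of 21 and 0.590%, and every match to it is also a match to the shorter one. TATAAA, the TATA box, was in 8 of 31 (25.8%), 1 of 21 (4.76%) and 5.28%, and TGANTCA, the AP-1 motif, in 5 of 31 (16.1%), 2 of 21 (9.52%) and 4.37%. GCCGGCG, reported as a ZNF395 binding sequence, was in 2 of 31 (6.45%), 2 of 21 (9.52%) and 19.3%. GGAATG, the TEAD motif, was in 2 of 31 (6.45%), 3 of 21 (14.3%) and 10.5%, with ANKRD1 and NUAK2 as the higher genes. CACGTG, the E-box, was in 1 of 31 (3.23%), 1 of 21 (4.76%) and 10.25%, and ACGTG, the hypoxia response core that every E-box of this form also holds, in 3 of 31 (9.68%), 3 of 21 (14.3%) and 27.3%. TGATGNAAN, the ATF4 element, was in 2 of 31 (6.45%), 1 of 21 (4.76%) and 1.64%, and the interferon response motif in 2 of 31 (6.45%), 0 of 21 and 2.79%. These are matches of letters in a short window and say nothing of binding.

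Among the chemokines and cytokines, IL8, the neutrophil attractant, had the largest smaller ratio of the 41 genes. It stood at 7.03 CPM without knockdown, 48.3 for hairpin 1 and 44.8 for hairpin 3, 6.86-fold (95% counting interval 6.28 to 7.52) and 6.37-fold (5.82 to 6.99) above the control. The 2 knockdown libraries were close to each other and far from the control. IL6, a cytokine of the acute phase, stood at 5.95, 18.8 and 17.7 CPM in the control, hairpin 1 and hairpin 3 (log2 ratios 1.66 and 1.57), with the same pattern. The neutrophil-attracting chemokine CXCL1 was at 1.91, 7.10 and 4.63 CPM (1.89 and 1.27), and its close relative CXCL3 at 0.857, 2.06 and 2.80 CPM (1.24 and 1.68). CXCL2, the third of these near-identical neighbours, was at 2.98, 5.51 and 12.8 CPM, and reads shared between the 3 are split in a way the sources do not give. All 3 were lowest in the control, but hairpin 1 was the higher knockdown library for CXCL1 and hairpin 3 for CXCL2 and CXCL3. CXCL5 (32.1, 59.5 and 69.6 CPM) and the monocyte attractant CCL2 (2.94, 10.1 and 4.85 CPM) were between 1.5-fold and 2-fold higher with at least 1 hairpin.

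Inhibitors, subunits and adaptors of the pathway were also higher with both hairpins. TNFAIP3, or A20, an enzyme that restrains NF-kB signalling, stood at 19.3 CPM without knockdown, 62.8 for hairpin 1 and 50.2 for hairpin 3 (log2 ratios 1.70 and 1.38). NFKBIE, an inhibitor of the kappa B inhibitor family, stood at 21.5, 32.6 and 37.3 CPM (0.60 and 0.79). The subunits of the alternative branch were higher with both hairpins by more than 1.5-fold: NFKB2 at 80.1, 128 and 126 CPM (0.68 and 0.65), and RELB at 20.8, 34.7 and 36.3 CPM (0.74 and 0.80). The control was the lowest library for each of these genes. The knockdown libraries were near each other for NFKB2 and RELB, and apart by more than counting error for TNFAIP3 and NFKBIE. TRAF1, an adaptor of TNF receptors, was at 11.9, 27.3 and 21.9 CPM, IRAK2, a kinase of the Toll-like and interleukin-1 receptors, at 10.3, 23.1 and 19.0 CPM, and CD83, a surface protein of activated immune cells, at 11.2, 17.8 and 20.6 CPM. BCL2A1, a survival protein that NF-kB induces, was low but went from 38 counts in the control to 139 and 143 (log2 ratios 1.82 and 1.91). The subunit RELA stood at 75.1, 79.2 and 71.1 CPM.

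Of the 32 members of the NF-kB list with at least 1 CPM, 14 were at least 1.5-fold higher with both hairpins (43.8%, against 1.12% of all genes) and 0 lower. With hairpin 1, 31 of 32 had a ratio above 1, and with hairpin 3, 26 of 32. The list's median log2 ratio was 0.81 with hairpin 1 and 0.54 with hairpin 3, against -0.01 and 0.01 for all genes. After adjustment over all genes edgeR called none of the members. Its unadjusted p-values rest on these same ratios, so nothing is read from them. Some members were high with hairpin 1 and not with hairpin 3, named here after their values were seen. BIRC3, an inhibitor of apoptosis, stood at 124, 385 and 179 CPM (log2 ratios 1.63 and 0.53), and the growth factor CSF2 at 0.908, 5.66 and 1.06 CPM (2.61 and 0.22). The adhesion molecules VCAM1 (115, 279 and 157 CPM) and ICAM1 (73.6, 158 and 95.6 CPM) had the same order. NFKBIZ, an atypical inhibitor, was lower with both, at 294, 246 and 134 CPM. In A-498, 5 of the list's 32 measured members were at least 1.5-fold higher with both hairpins and 0 lower, against 2.02% of all genes higher. The list's medians there were 0.54 with hairpin 1 and 0.24 with hairpin 3. The list was assembled with results of these libraries known.

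**Figure D3:**
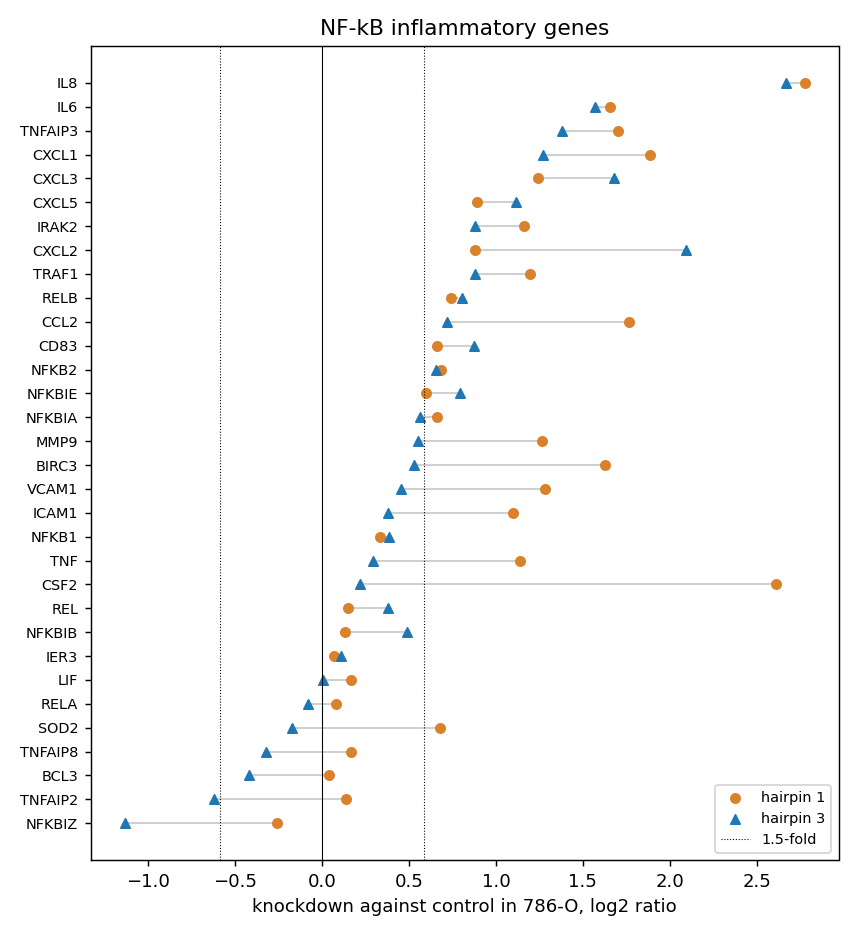
Log2 ratio to the 786-O control with hairpin 1 (circles) and hairpin 3 (triangles) for the 32 NF-kB inflammatory genes with at least 1 CPM, ordered by the smaller ratio, with dotted lines at 1.5-fold. The top 14 genes lie to the right of 1.5-fold with both hairpins, and IL8 stands apart at 2.78 and 2.67.

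Surface proteins that face the immune system were also among the higher genes. CD274 encodes PD-L1, a ligand that restrains T cells through PD-1, and it stood at 8.47 CPM without knockdown, 21.8 for hairpin 1 and 35.5 for hairpin 3 (log2 ratios 1.36 and 2.07). PDCD1LG2, the neighbouring gene for PD-L2, stood at 4.003, 9.20 and 16.9 CPM (1.20 and 2.07). Both ligands were higher with hairpin 3 than with hairpin 1 and lowest in the control. IL7R, the receptor chain for interleukin-7, stood at 18.8, 49.0 and 89.7 CPM (1.38 and 2.25), in the same order. It was the single member of 30 measured cytokine receptor and interleukin genes past 1.5-fold with both hairpins (3.33%, against 1.12% of all genes). TNFRSF9, or 4-1BB, a costimulatory receptor, was at 35.5, 76.6 and 81.9 CPM, and the interferon-induced GTPase GBP1 at 55.2, 115 and 105 CPM. GBP1 was the only one of 42 measured interferon-stimulated genes past 1.5-fold with both hairpins (2.38%), and the list had medians of 0.29 and -0.02. In A-498 the list's medians were 1.81 and 1.07, and 33 of 42 were past 1.5-fold upward there with both, against 2.02% of all genes.

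Other higher genes named by the rule encode surface, matrix or secreted proteins. CLDN1, a tight junction protein, stood at 44.0 CPM without knockdown, 129 for hairpin 1 and 223 for hairpin 3 (2.94-fold, counting interval 2.83 to 3.06, and 5.07-fold, 4.89 to 5.27). TNC, the matrix glycoprotein tenascin C, stood at 79.6, 366 and 210 CPM (log2 ratios 2.20 and 1.40), one of 13 higher genes with the larger ratio for hairpin 1. PTX3, a secreted pentraxin of innate immunity, was at 7.34, 21.3 and 33.6 CPM (1.53 and 2.19). In all of these the control was lowest, with the hairpins apart by more than counting error. SCG5, a secretory chaperone of neuroendocrine cells, was at 5.24, 15.9 and 25.7 CPM. The prostaglandin E2 receptor PTGER4 stood at 6.77, 18.9 and 15.4 CPM, and INHBA, the activin A subunit, at 66.0, 139 and 133 CPM. The collagen-binding integrin ITGA2 stood at 9.72, 19.8 and 34.2 CPM. The laminin chain LAMB3 (73.5, 143 and 286 CPM) was past 1.5-fold with both hairpins but is not one of the 41. Of 30 measured matrix and mesenchymal genes 3 were past 1.5-fold upward with both (10.0%, against 1.12% of all genes). Downward there was 1 (3.33%, against 1.37%), the transcription factor SNAI1 at 22.7, 13.3 and 9.85 CPM.

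Targets of YAP and TEAD, the transcriptional regulators of the Hippo growth pathway, gave 4 genes past 1.5-fold upward with both hairpins out of 25 measured. That was 16%, against 1.12% of all genes, and 0 were lower. F3, tissue factor, which starts blood clotting, stood at 54.1 CPM without knockdown, 117 for hairpin 1 and 265 for hairpin 3 (log2 ratios 1.12 and 2.29). ANKRD1, a common reporter of YAP activity, stood at 41.3, 87.9 and 99.4 CPM (1.09 and 1.27), the kinase NUAK2 at 16.6, 39.3 and 33.9 CPM (1.25 and 1.03), and the ecto-nucleotidase NT5E at 71.9, 114 and 236 CPM (0.67 and 1.72). Each was lowest in the control, and hairpin 3 was the higher knockdown library in all but NUAK2. The list's medians were 0.06 and 0.22, with 13 and 17 of 25 above the control. In A-498, 6 of the 25 were past 1.5-fold upward with both hairpins and 0 downward, against 2.02% of all genes upward.

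Inside the cell, DYNLRB1, a light chain of cytoplasmic dynein, stood at 50.4 CPM without knockdown, 135 for hairpin 1 and 133 for hairpin 3 (2.68-fold, counting interval 2.59 to 2.78, and 2.65-fold, 2.55 to 2.75). HSD17B10, a mitochondrial dehydrogenase and subunit of mitochondrial RNase P, stood at 35.9, 86.4 and 88.0 CPM (2.40-fold and 2.45-fold). For these genes, as for IL6, the ratio with each hairpin lay within the counting interval of the other. HMGA2, a chromatin protein of embryonic and tumour cells, stood at 22.0, 50.3 and 65.0 CPM, and G0S2, which restrains lipolysis, at 15.6, 41.5 and 60.8 CPM. HSD17B10 was the single member of 24 measured mitochondrial biogenesis genes past 1.5-fold with both hairpins (4.17%, against 1.12% of all genes upward). Of the 35 nuclear genes of the respiratory chain, the 15 genes of mitochondrial DNA and the 28 of the TCA cycle and fatty acid oxidation, 0 were past 1.5-fold with both in either direction. Their medians lay between -0.18 and 0.02.

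Further members of the 41 were CYTIP, TRPC4, CCRL2, LCP1, TMEM158, C6orf141, ARHGDIB, GLIPR1, FAM196B, PTGFR and the transcripts LINC00705, RP11-553A10.1, AC005077.14, RP11-955H22.1, AC002480.3 and RP11-7F17.7. They are named after their values were seen. Of the 41, 28 had a mean of at least 5 CPM, 36 were found in the annotation and 35 of these are protein coding.

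**Figure D4:**
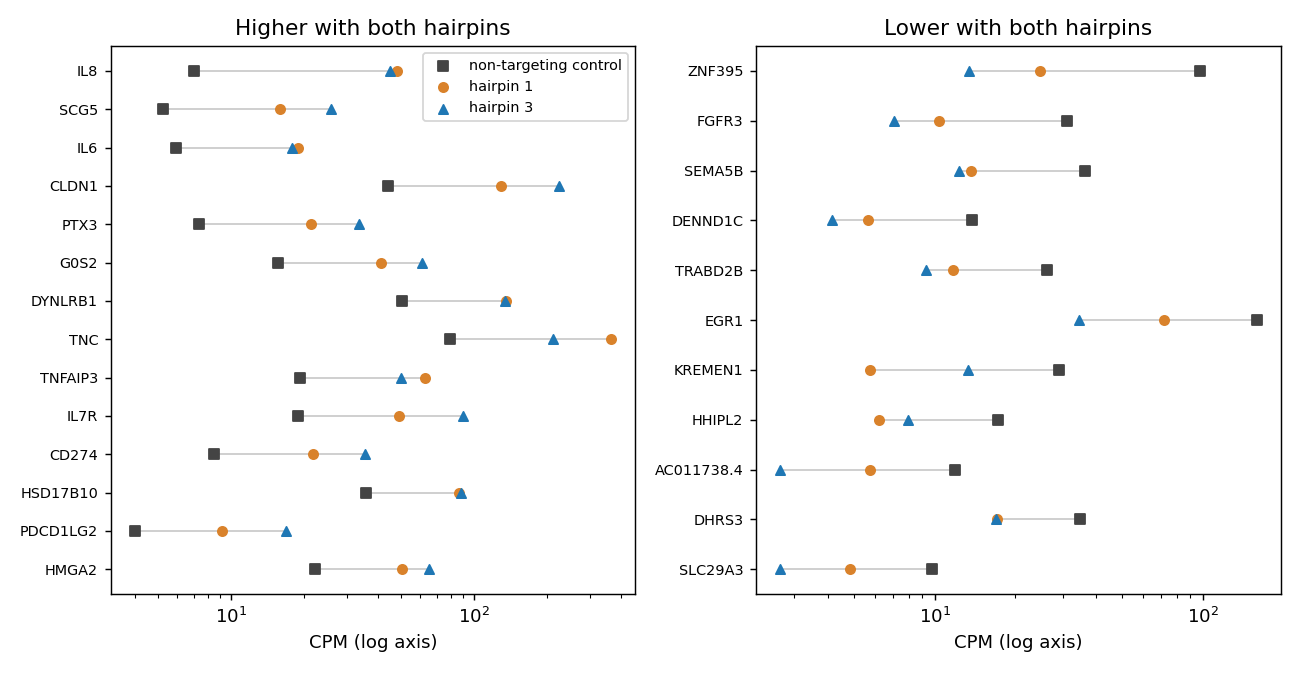
CPM (log axis) in the control (squares), hairpin 1 (circles) and hairpin 3 (triangles) libraries of 786-O for 14 of the 15 higher genes and the 11 lower genes with the largest smaller ratio and a mean of at least 5 CPM. The control lies at the left end of every higher gene and at the right end of every lower gene, and the hairpins nearly coincide for IL6, DYNLRB1, HSD17B10 and DHRS3.

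Some receptors and regulators of growth factor and Wnt signalling were lower with both hairpins, with FGFR3, KREMEN1 and TRABD2B among the 29 genes past 2-fold. FGFR3, a receptor tyrosine kinase for fibroblast growth factors, stood at 31.1 CPM without knockdown, 10.4 for hairpin 1 and 7.06 for hairpin 3, so that 33.3% (counting interval 30.7 to 36.1%) and 22.7% (20.6 to 24.96%) of the control level were left. FGFR2, its relative, stood at 28.7, 10.3 and 16.1 CPM, PDGFRB at 2.32, 1.25 and 1.29 CPM and the ephrin ligand EFNA1 at 14.5, 9.49 and 7.30 CPM. In each the control was highest, and these were the 4 members past 1.5-fold downward among 28 measured receptors and ligands (14.3%, against 1.37% of all genes). Upward past 1.5-fold were 2 (7.14%, against 1.12%), the EGF receptor ligand HBEGF (11.6, 24.9 and 21.7 CPM) and the ephrin EFNB2 (26.7, 45.8 and 56.1 CPM). The medians of these receptors and ligands were -0.08 and 0.06, with 11 and 15 of 28 above the control. KREMEN1, a Dickkopf receptor that takes the Wnt coreceptor LRP6 off the cell surface, stood at 28.98, 5.76 and 13.4 CPM (log2 ratios -2.33 and -1.12), 1 of 4 lower genes with the larger change for hairpin 1. TRABD2B, a membrane metalloprotease that inactivates Wnt ligands, stood at 26.1, 11.7 and 9.25 CPM. AXIN2, a target and brake of Wnt signalling, was at 3.34, 1.79 and 1.66 CPM, and the receptor FZD2 at 10.2, 6.21 and 5.32 CPM. KREMEN1, AXIN2 and FZD2 were 3 of 24 measured Wnt genes past 1.5-fold downward (12.5%, against 1.37% of all genes), with 0 upward. The Wnt list's medians were -0.07 and 0.02, with 11 and 13 of 24 above the control.

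Immediate early genes, which growth factors switch on through MAP kinases, went both ways. EGR1, a zinc finger transcription factor, stood at 159 CPM without knockdown, 72.0 for hairpin 1 and 34.5 for hairpin 3 (log2 ratios -1.14 and -2.20). FOS, of the AP-1 family, stood at 21.6, 8.39 and 12.3 CPM and FOSB at 10.04, 5.199 and 1.98 CPM. FOSL1, another AP-1 subunit, was higher with both, at 114, 183 and 212 CPM, as was the MAP kinase phosphatase DUSP16 at 13.7, 22.5 and 25.98 CPM. So 3 of 24 measured members were past 1.5-fold downward with both hairpins (12.5%, against 1.37% of all genes) and 2 upward (8.33%, against 1.12%).

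Transporters were among the lower genes. SLC17A3, a urate transporter of the proximal tubule, stood at 6.68 CPM without knockdown, 2.95 for hairpin 1 and 0.954 for hairpin 3 (log2 ratios -1.17 and -2.78). SLC7A2, a carrier of cationic amino acids, stood at 5.38, 2.40 and 1.72 CPM, and SLC23A1, a vitamin C transporter, at 1.94, 0.766 and 0.437 CPM. All 3 were highest in the control and lowest with hairpin 3. GAL3ST1, which makes sulfatide and is high in clear cell carcinoma, stood at 319, 149 and 195 CPM and was past 1.5-fold but not 2-fold with both hairpins. With ZNF395 and SLC17A3 it made 3 of 26 measured genes associated with that carcinoma past 1.5-fold downward, with 0 upward. That share was 11.5%, against 1.37% of all genes, and ZNF395 is in it as the targeted gene. The carcinoma list had median log2 ratios of -0.15 and -0.01, with 6 and 13 of 26 above the control. Of 18 measured renal tubule genes 2 were past 1.5-fold downward (11.1%, against 1.37% of all genes) and 0 upward. They were the scaffold protein PDZK1 at 92.2, 53.4 and 14.6 CPM, and the claudin CLDN2 at 74.5, 49.7 and 12.2 CPM. For both, hairpin 1 lay nearer the control than hairpin 3, and CLDN2 (log2 ratio -0.59 with hairpin 1) sat at the limit. With DESeq2 size factors, or with the A-498 share taken off, 1 of these 2 was left. The list's medians were -0.22 and -0.54.

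Other lower genes at 5 CPM or more were SEMA5B, a semaphorin (36.4, 13.7 and 12.4 CPM), DENND1C, which activates a Rab GTPase (13.8, 5.62 and 4.15 CPM), HHIPL2 (17.2, 6.22 and 7.95 CPM), the retinal reductase DHRS3 (34.9, 17.1 and 17.0 CPM), the nucleoside transporter SLC29A3 (9.75, 4.85 and 2.65 CPM) and AC011738.4 (11.9, 5.76 and 2.65 CPM). In each of the 6 the control was highest, and DHRS3 had nearly the same level with either hairpin. The remaining members of the 29 were PRODH, TFCP2L1, TMEM37, ANO3, RIMS3, AKR1C1, DUSP9, PKHD1, RP11-44N11.2, NPY1R, VWA1, ZBED2, KLHL14, ARRB2 and SLITRK4. PRODH, the first enzyme of proline breakdown, is named after its values were seen: it had 760, 200 and 144 counts in the 3 libraries. Of the 29, 11 had a mean of at least 5 CPM, and all 27 found in the annotation are protein coding.

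AKR1C1, an aldo-keto reductase, was a lower gene whose value turned on the share of the A-498 level taken off the control. It stood at 2.01, 0.779 and 0.437 CPM in 786-O and at 716 CPM in the A-498 control, and 79.0% of its control count was taken off with that share. Then its log2 ratios were 0.85 and 0.05. The share used was the median of 0.221%, and the 20 genes behind it had quartiles of 0.1485 and 0.3217%. How much is taken off AKR1C1, and its ratios after that, shift with the share chosen. AKR1B10, its relative, stood at 19.0, 11.5 and 6.08 CPM against 3421 CPM in the A-498 control, and without the share its ratios were 0.00 and -0.91. These 2 were the members of the NRF2 and detoxification list past 1.5-fold downward (2 of 24 measured, 8.33%, against 1.37% of all genes). With the share taken off 0 were left. Of the 70 genes, AKR1C1 was the only one to lose over 10% of its control count, and 3 lost their place: AKR1C1, and SLC29A3 and SLITRK4 at the 2-fold limit. The AKR1C genes are close copies, and reads shared between them are uncertain.

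Members of other lists that passed 1.5-fold with both hairpins were few. ACTG1, a cytoplasmic actin with many near-identical copies, was the most abundant, at 4377, 2027 and 2629 CPM. With the integrin chain ITGB6 (24.3, 15.9 and 7.91 CPM) it was lower among 25 measured adhesion genes, while ITGA2 and zyxin, ZYX (213, 333 and 328 CPM), were higher. Each direction held 8% of that list, against 1.12% of all genes higher and 1.37% lower. Of 29 measured HIF targets 1 was higher (3.45%), the lactate exporter SLC16A3 at 186, 380 and 333 CPM, and 1 lower, the glycolytic regulator PFKFB3 at 273, 176 and 146 CPM. Of 24 TGF-beta genes INHBA was higher and ID1, a target of BMP signalling, lower (223, 128 and 129 CPM), each 4.17% of the list. FASN, fatty acid synthase, stood at 387, 256 and 178 CPM and was no longer past 1.5-fold with DESeq2 size factors. MYCL stood at 7.21, 4.52 and 1.30 CPM. Of 30 measured p53 targets 2 were past 1.5-fold downward (6.67%, against 1.37% of all genes) and 0 upward: TP53INP1 at 44.3, 27.3 and 18.9 CPM and TP53I3 at 3.27, 2.13 and 2.12 CPM (1 of the 2 with the share taken off). That list's medians were -0.14 and 0.40, with 10 and 22 of 30 above the control. Glycolysis, DNA replication and mitosis, cholesterol synthesis, ATF4 targets, the unfolded protein response, lysosome and cytosolic ribosomal proteins each had 0 members past 1.5-fold with both hairpins in either direction.

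Several of these lists differed between the hairpins by their medians. ATF4 targets, the genes of the amino acid stress response, had a median log2 ratio of -0.13 with hairpin 1 and 1.00 with hairpin 3, with 9 and 30 of 33 above the control. Cholesterol synthesis genes had -0.02 and -0.77, with 9 and 3 of 25 above the control, and HIF targets -0.10 and 0.46. DNA replication and mitosis genes had -0.24 and 0.16, with 2 and 29 of 38 above the control. In A-498 the medians with hairpins 1 and 3 were 0.32 and 1.125 for ATF4 targets and 0.64 and -0.87 for cholesterol synthesis. For HIF targets they were -0.20 and 0.33 there. DNA replication and mitosis genes had the other order there, at 0.31 and -0.002. These are values of 1 library for each hairpin in each line, and their difference was not tested here.

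A-498 gave values from libraries that the choice of the 70 genes did not use, with its own control but the same hairpin reagents. The controls of both lines held low counts of genes high in the other line. They also held RNU6-1, at 0.563 CPM in 786-O and 0.596 CPM in A-498, which was at 0 with either hairpin in both lines. Whether controls and knockdown libraries were handled differently in both lines was not tested. Of the 41 genes higher in 786-O, 17 were at least 1.5-fold higher with both hairpins in A-498 (41.5%), against 2.02% of all genes compared. Of the 29 lower genes 16 were at least 1.5-fold lower with both, ZNF395 included (55.2%), against 1.76% of all genes. At 2-fold the numbers were 7 and 8, and 0 genes were past 1.5-fold the opposite way with both. The members' medians in A-498 were 0.86 with hairpin 1 and 0.32 with hairpin 3 for the higher genes, and -0.95 and -0.78 for the lower genes. In the A-498 control 13 of the 41 and 6 of the 29 were under 1 CPM. Such low genes are also among the 17 and the 16. Examples are FAM196B (0.388 CPM in that control), TFCP2L1 (0.358 CPM), ZBED2 (0.219 CPM) and KLHL14 (0.0994 CPM), whose ratios there rest on few counts. With the other line's share taken off each control, 18 of 44 higher and 14 of 26 lower genes were past 1.5-fold the same way with both hairpins in A-498.

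The genes with the largest smallest ratio over both lines included DYNLRB1, at 24.0, 59.9 and 62.6 CPM in the control, hairpin 1 and hairpin 3 of A-498, and HMGA2, at 26.2, 61.1 and 86.2 CPM. PTGER4 stood there at 4.31, 11.3 and 8.73 CPM, IL7R at 17.7, 34.2 and 53.5 CPM and CXCL3 at 1.31, 4.06 and 5.78 CPM. ANKRD1 was low in that line (1.08, 4.53 and 2.41 CPM), as were AC005077.14 (3.83, 8.15 and 9.92 CPM) and RP11-7F17.7 (0.715, 2.15 and 1.58 CPM). Among the lower genes KREMEN1 stood at 23.5, 4.47 and 9.95 CPM, with the lowest value for hairpin 1 as in 786-O, and SLC7A2 at 11.8, 2.86 and 2.33 CPM. FGFR3 (13.9, 6.40 and 5.99 CPM), HHIPL2 (20.9, 10.3 and 8.80 CPM) and RIMS3 (20.1, 9.60 and 5.70 CPM) were also in that group. SLC23A1 (1.57, 0.633 and 0.546 CPM) and KLHL14 (0.0994, 0 and 0.0309 CPM) completed it. The A-498 ratios of KLHL14 rest on very few counts. Other top genes of 786-O were past 1.5-fold with hairpin 1 but not with hairpin 3 in A-498: IL8 at 25.1, 91.3 and 31.2 CPM, CD274 at 7.46, 22.7 and 8.80 CPM, PDCD1LG2 at 1.01, 4.01 and 1.08 CPM and TNC at 67.3, 148 and 60.6 CPM. For these 4 the hairpin 3 library of A-498 lay near its control. DHRS3 was at 109, 107 and 116 CPM in A-498, log2 ratios of -0.03 and 0.09.

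**Figure D5:**
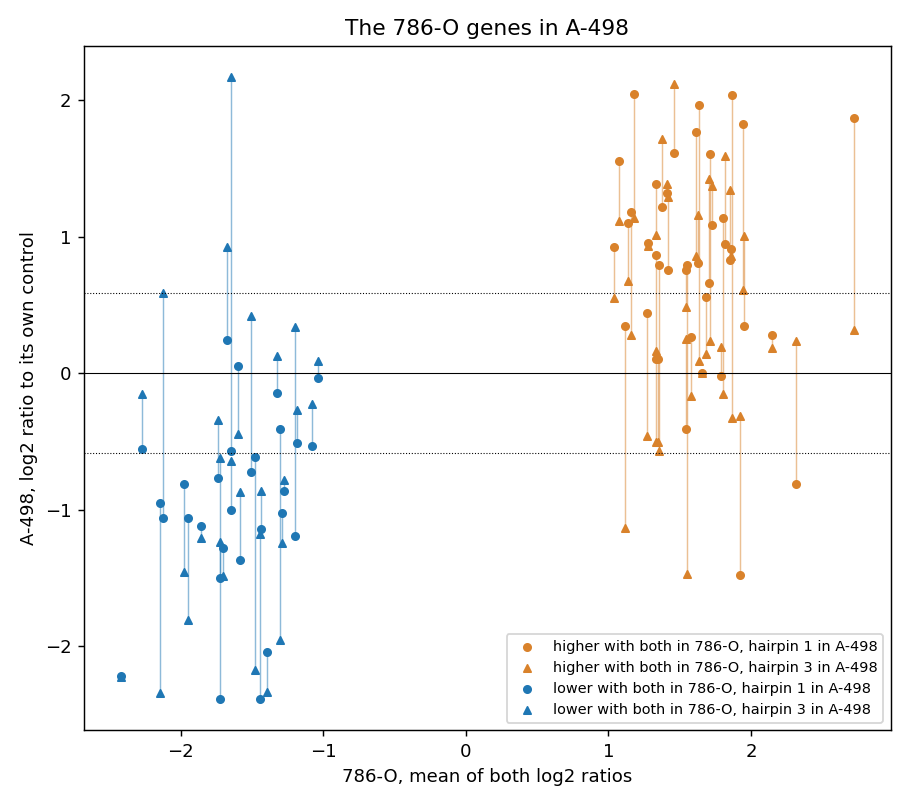
Log2 ratio to the A-498 control with hairpin 1 (circles) and hairpin 3 (triangles), joined by a line for each gene, against the mean of both log2 ratios in 786-O, for the 41 higher (orange) and 29 lower (blue) genes. The gap in the middle follows from the choice of genes, and with both hairpins 17 orange genes lie above the upper dotted line (1.5-fold) and 16 blue genes below the lower one.

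Tests across all genes called few or none of these genes. In a model of all 6 libraries with 4 means, 1 for each line with and without knockdown, and 2 residual degrees of freedom, edgeR's quasi-likelihood test with Benjamini-Hochberg adjustment called 0 of 21337 genes within 786-O (0%), with 333 at an unadjusted p under 0.05 and a lowest adjusted p of 0.74. Of the 70 genes, 34 of the 41 and 24 of the 29 had an unadjusted p under 0.05, but they were chosen by these same ratios, so nothing is read from that. ZNF395 itself had a fitted log2 change of -2.36 in edgeR (SE 0.383, and an adjusted p of 1). In this model each lone control is fitted exactly, so the residual spread is only that between the hairpin 1 and hairpin 3 libraries of each line. These p-values therefore rest on the difference between the hairpins and hold no spread between controls or repeat cultures. limma-voom also called 0 (355 at an unadjusted p under 0.05). The test of the difference between the lines in the knockdown response called 0 of 21337 (0%), with 166 at an unadjusted p under 0.05.

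DESeq2 on the same model called 13 genes within 786-O, 5 higher and 8 lower. The higher were IL8 (log2 fold change 2.74, adjusted p = 0.0162), DYNLRB1 (1.43, adjusted p = 0.0162), PTX3 (1.92, adjusted p = 0.0162), TNFAIP3 (1.57, adjusted p = 0.0331) and CLDN1 (2.02, adjusted p = 0.0407), all among the 41. Of the lower, ZNF395 (-2.34, adjusted p = 0.00361), FGFR3 (-1.82, adjusted p = 0.0218) and TMEM37 (-2.20, adjusted p = 0.0491) were among the 29. AKR1C2, FBLN1 and KCTD15 were 3 of the 20 genes from which the share was measured, and CYP26B1 had 98, 28 and 17 counts in 786-O and 97.7 CPM in the A-498 control. The remaining lower gene is not named here. Taking the share off left 1 DESeq2 call, ZNF395 (adjusted p = 0.0131), with adjustment over 21337 genes instead of 11409. Adjusted over the same 11409 genes, 6 calls were left: IL8, DYNLRB1 and PTX3 (each adjusted p = 0.0316), TNFAIP3 (adjusted p = 0.0492), FGFR3 (adjusted p = 0.0375) and ZNF395 (adjusted p = 0.00699). With the hairpin number as a replicate block, edgeR called 1 gene, AKR1C2 (adjusted p = 0.0293), whose control count of 62 was taken off entirely with the A-498 share.

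How the counts treat strand is not given here, so a gene cannot be told from an overlapping antisense gene. Of the higher genes 17 overlapped a gene on the opposite strand and 5 a gene on the same strand, and of the lower genes 11 and 9. Among the former were SCG5, IL6, PTX3, G0S2, TNC, TNFAIP3, HMGA2, PTGER4, GLIPR1, ITGA2 and INHBA, and among the latter ZNF395, KREMEN1, TRABD2B, SLC17A3, SLC7A2, DHRS3 and SLC29A3 on the same strand.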

How the data were processed

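RNA-seq of 6 libraries was analysed, and 3 of them, from 786-O, carry the results. The deposited values are whole-number read counts per gene symbol, which the authors did not normalize. The submitters' processing notes name the tools STAR and DESeq2 and the builds hg19 and hs37d5. No source used here gives the counting tool, the annotation or the use of strand.

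CPM values used TMM factors of edgeR 4.0.16 (R 4.3.3), and log2 ratios a prior count of 2 scaled to the library. Genes were compared where they averaged 1 CPM or more over the 3 libraries. Intervals on ratios of counts are exact (Clopper-Pearson, 95%). Tests used edgeR's quasi-likelihood fit, DESeq2 1.42.0 and limma 3.58.1 (voom) and called genes below 0.05 after adjustment. The F statistic gave the standard errors. Overlaps came from GENCODE 29, promoters from RefSeq.

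Genes were named by rule: ZNF395, up to 15 genes in each direction at 2-fold with both hairpins and a mean of at least 5 CPM, ranked by the smaller ratio, up to 4 per list at 1.5-fold, and up to 8 in each direction by the smallest of the 4 ratios of both lines. Other members of the lists past 1.5-fold and of the set of 70 are named beside these. Some genes that the rule takes are not reported here, though counts include them. The members, the 29 pathway lists, the 5 marker lists, the motifs and the rules were chosen with earlier results of these data known. Alternatives covered scaling, filters, prior count, fold limit, other tests and each library left out. Taking off the other line's share (its median percent times the other control's CPM), the shorter NF-kB motif and the DESeq2 adjustment over the same genes were added after the data were seen. No column of per-sample values was left unlisted (0).

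Knockdown libraries with equal replicate numbers share a hairpin. The number of the controls is only a name, since they carry neither hairpin. The difference of hairpin 3 from hairpin 1 correlated between lines over 11027 genes (Pearson r 0.577, Spearman rho 0.556), a description over genes, which are not independent. The blocked fit left 1 residual degree of freedom. No label gives a batch or date, so no value within batches could be given.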

Additional observations from a re-analysis of the deposited data

Results flagged for a closer look

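Of the genes named by rule and the set of 70, 3 had ratios in 786-O that all went one way while those of A-498 all went the other way. EGR1, an immediate early transcription factor, had log2 ratios of -1.14 and -2.20 with hairpins 1 and 3 in 786-O and 0.24 and 0.92 in A-498, where it stood at 54.7, 64.7 and 104 CPM. The fitted difference between the lines was -2.20 on the log2 scale (edgeR, unadjusted p = 0.0211, adjusted p = 1). LAMB3, a laminin chain, had 0.96 and 1.96 in 786-O and -0.41 and -0.27 in A-498, where it stood at 86.8, 65.4 and 72.0 CPM. Its fitted difference was 1.88 (edgeR, unadjusted p = 0.0205, adjusted p = 1). CYTIP, a gene of the 41 that encodes a cytohesin-interacting protein, had 1.499 and 2.35 in 786-O and -1.48 and -0.32 in A-498, where it was low at 0.596, 0.199 and 0.474 CPM. Its fitted difference was 2.83 (edgeR, unadjusted p = 0.0252, adjusted p = 1). None of the 3 differences passed the test after adjustment over 21337 genes.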

How the results depend on the processing

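The counts of genes at 2-fold with both hairpins depend on the filter and the fold limit more than on the scaling. DESeq2 size factors gave 45 higher and 27 lower, total count scaling 39 and 30, a prior count of 0.5 41 and 29, and the share taken off 44 and 26, of which 41 and 26 were among the original genes. A mean of at least 5 CPM left 28 higher and 11 lower, and 6 of the latter were lower in A-498. With no filter there were 421 higher and 720 lower (69 and 94 past 1.5-fold with both in A-498), and with the share taken off as well 438 and 663 (71 and 89). A 1.5-fold limit gave 145 and 178, and a 3-fold limit 6 and 4. With 1 hairpin left out the other alone gave 96 to 259 higher and 75 to 616 lower genes. For the edgeR test within 786-O, which called 0, the fit with the replicate block called 1, DESeq2 13, DESeq2 with the share taken off 1, and 6 with adjustment over the same genes. Leaving out 1 library gave 0 to 0 calls within 786-O and 0 to 0 for the difference between lines, which also had 0 with the replicate block. The 786-O control could not be left out, nor the A-498 control for the difference between lines, since each is the only control of its line.

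Of 82 named genes with a fitted fold, 1056 values under other settings kept direction without passing the threshold, 8 passed it (in DESeq2) and 2 reversed, both AKR1C1 with the share taken off (0.53 in edgeR and 0.54 in DESeq2). Since edgeR called none of them, staying under the threshold is no sign of stability. Of 68 counts of list members, 66 stayed within 1.5 times under DESeq2 size factors. Fatty acid genes lower with both went from 1 to 0 there, and renal tubule genes from 2 to 1. With the share taken off 65 stayed, and lower NRF2 genes went from 2 to 0, p53 targets from 2 to 1 and renal tubule genes from 2 to 1. At these depths 1 CPM, the filter's limit on the mean, stood for 75.4 to 78.3 counts.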

Other observations

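RNU6-1, a U6 small nuclear RNA gene, had 44 counts in the 786-O control and 0 with either hairpin, which allows up to 3 counts each. It was named after its values were seen. The A-498 control held it at 0.596 CPM, and that line was at 0 with either hairpin. It is under 1 CPM and was not among the genes compared, and its near-identical copies make its counts uncertain.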
